A study of Mus musculus with 2 samples.

Results

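Rab proteins are small GTPases that mark the membranes of the secretory and endocytic pathways and recruit the effectors that move, tether and fuse vesicles. In neurons the Rab3 group sits on synaptic vesicles, the Rab5, Rab4 and Rab11 groups run the endosomal cycle that returns membrane and receptors to the surface, and Rab1, Rab2 and Rab6 serve traffic between endoplasmic reticulum (ER) and Golgi. The genes described here are the protein-coding genes of the GENCODE M21 annotation of mm10 whose symbol is Rab followed by digits and at most 1 letter, 59 of 21938 coding genes on the main chromosomes. The rule takes names and no measured value. Rab-like genes with longer names are therefore not among them.

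Open chromatin was measured in 2 libraries of DNase-seq, an assay in which the nuclease DNase I cuts accessible DNA, from whole cerebellum of male mice aged 8 to 10 months. The mice were B6CASTF1/J, the first-generation cross of a C57BL/6J and a CAST/EiJ parent. Replicate 1 and replicate 2 each came from a pool of 2 biosamples. The labels give 1 donor identifier for both pools and leave unsaid if an animal entered both, and the difference between the libraries may then be technical. There is 1 group and no treatment, age series or second tissue. The comparisons below are therefore among genes within each library, given for both libraries with no p-value, since a permutation test over 2 libraries cannot reach 0.05. A share or level in whole tissue does not separate fewer cells with an open site from less opening per cell.

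A stricter and a longer peak list were deposited for each library. Every peak of the stricter lists held a base with a false discovery rate (FDR) of the cut rate under 0.001, as did 64.1% and 63.9% of peaks in the longer lists of replicates 1 and 2. The stricter lists held 61776 and 71141 peaks and the footprint lists 314116 and 320832 footprints, short protected stretches within open DNA. Depth in reads was not among the values used, so the number of peaks is the only guide to it. Markers fixed for cell types gave granule cells a peak at the starts of 10 of 10 genes in both libraries. The counts in both libraries were 5 of 8 for Purkinje cells, 4 of 7 for Bergmann glia and astrocytes, 1 of 8 for oligodendrocytes, 0 of 6 each for microglia and vessels, 1 of 5 for choroid plexus and 1 of 6 for forebrain. The granule cell markers of the labelled tissue were thus open throughout, and few of those of oligodendrocytes, microglia and vessels were.

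A gene was taken as open at its start where a stricter peak reached within 1 kb of any annotated transcript start, and its signal was the authors' signal value of the strongest such peak. By that rule 52 of the 59 Rab genes (88.1%) were open in replicate 1, and the background over all coding genes was 58.4%. The same 52 genes (88.1%) were open in replicate 2, against 57.2% of coding genes, so that no Rab gene was open in 1 library alone. Over both libraries the coding background was 55.9%. The 7 genes without a peak were Rab7b, Rab17, Rab19, Rab20, Rab25, Rab34 and Rab38. In the longer lists 53 Rab genes had a peak in each library, against 63.4% and 62.2% of coding genes in replicates 1 and 2. Rab38 was the gene gained, with a lowest FDR in its windows of 0.0227 and 0.00809. The other 6 had no interval under 0.05 near a start in either library.

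Promoter sequences are shown first, for the Rab3 group, both extremes of the Rab11 group and the higher gene of the Rab40 pair. They come from the RefSeq promoter table of GRCm38, which held 48 of the 59 genes, and are printed 5′ to 3′ on the gene's strand. Each starts 250 bases before the RefSeq start and ends at the last base before the first annotated exon of any gene. Where no exon comes earlier, as for Rab3c, it ends at the RefSeq start. The Rab3c sequence lies within the annotated span of its gene. Lengths ran from 149 bases for Rab11b to 250 for Rab3c, so base counts are over unlike windows. Capitals mark bases that footprints covered in both libraries. The Rab3a promoter (chr8:70754453-70754678, plus strand) had 83 such bases in 5 runs. The Rab3b promoter (chr4:108878820-108879062, plus strand) had 0, with 24 bases under a footprint in replicate 1 and 0 in replicate 2. The Rab3c promoter (chr13:110280207-110280456, minus strand) had 18 in 2 runs and the Rab3d promoter (chr9:21918193-21918433, minus strand) 83 in 4 runs.
Rab3a: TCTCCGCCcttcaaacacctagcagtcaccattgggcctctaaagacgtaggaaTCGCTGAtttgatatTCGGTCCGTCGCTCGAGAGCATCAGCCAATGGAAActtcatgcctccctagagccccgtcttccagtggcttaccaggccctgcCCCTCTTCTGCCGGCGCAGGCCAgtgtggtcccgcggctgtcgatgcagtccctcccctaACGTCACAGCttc
Rab3b: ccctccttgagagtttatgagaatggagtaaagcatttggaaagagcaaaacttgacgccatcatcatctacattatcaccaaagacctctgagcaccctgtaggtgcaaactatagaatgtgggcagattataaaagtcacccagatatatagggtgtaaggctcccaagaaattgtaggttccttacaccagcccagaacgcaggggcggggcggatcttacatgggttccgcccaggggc
Rab3c: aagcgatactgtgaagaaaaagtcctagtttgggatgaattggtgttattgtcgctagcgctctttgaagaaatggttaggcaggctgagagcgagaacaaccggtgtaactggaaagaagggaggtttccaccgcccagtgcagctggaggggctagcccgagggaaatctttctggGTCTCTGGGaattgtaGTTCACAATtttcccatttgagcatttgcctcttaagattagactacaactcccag
Rab3d: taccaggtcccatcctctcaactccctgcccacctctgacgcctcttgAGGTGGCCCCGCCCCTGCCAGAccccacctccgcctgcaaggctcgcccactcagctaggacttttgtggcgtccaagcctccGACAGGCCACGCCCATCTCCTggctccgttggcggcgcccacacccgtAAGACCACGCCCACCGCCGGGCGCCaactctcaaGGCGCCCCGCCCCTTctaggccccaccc

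Rab11b and Rab25 are paralogues of the recycling endosome that stood at opposite ends of the range, and Rab40c had the second highest signal of the family. The Rab11b promoter (chr17:33760588-33760736, minus strand) had 58 footprint bases shared by both libraries in 3 runs. Its sequence stops at an exon of another gene, short of the Rab11b start, and overlaps the strongest Rab11b peak of each library only in part. The Rab25 promoter (chr3:88548301-88548529, minus strand) had 0 in either library, and the Rab40c promoter (chr17:25919728-25919964, minus strand) had 106 in 5 runs.
Rab11b: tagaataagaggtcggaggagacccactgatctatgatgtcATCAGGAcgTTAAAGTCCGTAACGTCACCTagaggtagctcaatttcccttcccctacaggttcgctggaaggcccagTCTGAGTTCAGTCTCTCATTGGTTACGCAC
Rab25: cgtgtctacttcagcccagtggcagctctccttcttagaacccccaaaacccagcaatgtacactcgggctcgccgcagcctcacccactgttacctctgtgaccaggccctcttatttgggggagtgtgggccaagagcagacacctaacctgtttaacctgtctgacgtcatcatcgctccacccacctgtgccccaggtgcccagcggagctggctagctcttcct
Rab40c: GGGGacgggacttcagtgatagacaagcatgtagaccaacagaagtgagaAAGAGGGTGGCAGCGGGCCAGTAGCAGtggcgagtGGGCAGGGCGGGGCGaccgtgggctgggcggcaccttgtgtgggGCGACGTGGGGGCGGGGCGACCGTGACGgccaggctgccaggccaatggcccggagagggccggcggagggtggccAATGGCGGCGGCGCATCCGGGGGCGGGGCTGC

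The signal at starts spread widely over the family. Its median over the 59 genes was 4.48 in replicate 1 and 3.27 in replicate 2, against 1.55 and 1.04 over all coding genes. Among genes with a peak the gap was smaller, with Rab medians of 5.71 and 3.83 against 4.83 and 3.38. Of the 59 genes, 44 lay above the coding median in both libraries, and 26 lay above the median of coding genes that had a peak. A median splits its own genes evenly within a library, and the share of coding genes above it in both libraries was not counted. The 26 of 52 open Rab genes are thus no clear excess over open coding genes. Replicate 1 gave the higher value at 46 of the 52 open Rab genes, with a median log2 ratio of replicate 1 over 2 of 0.45, and 0.55 over open coding genes. The order of the 52 genes was much the same in both libraries, with a rank correlation of 0.955 across genes, which share the libraries and are no replicates.

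Rab11b, which directs recycling endosomes and is common in brain, had the highest mean signal, 18.3 in replicate 1 and 21.2 in replicate 2 (19.8 ± 2.05, SD, n = 2 libraries). It ranked 57 and 4 among the 21938 coding genes. Rab40c, a Rab with a SOCS box that binds a ubiquitin ligase, followed with 19.99 and 16.2 (18.1 ± 2.65) and ranks of 33 and 39. The values of these genes overlapped between libraries, so their order is not set. Rab8a, which delivers membrane to the surface and the primary cilium, had 16.2 and 14.1. Rab5b, of the early endosome, had 13.8 and 15.3. Rab14, between Golgi and endosomes, had 16.1 and 12.1. The ranges of Rab8a, Rab5b and Rab14 overlapped one another as well, and the lowest rank of the 5 genes in either library was 437, that of Rab5b in replicate 1. The plot of signal by role shows all 59.

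**Figure D1:**
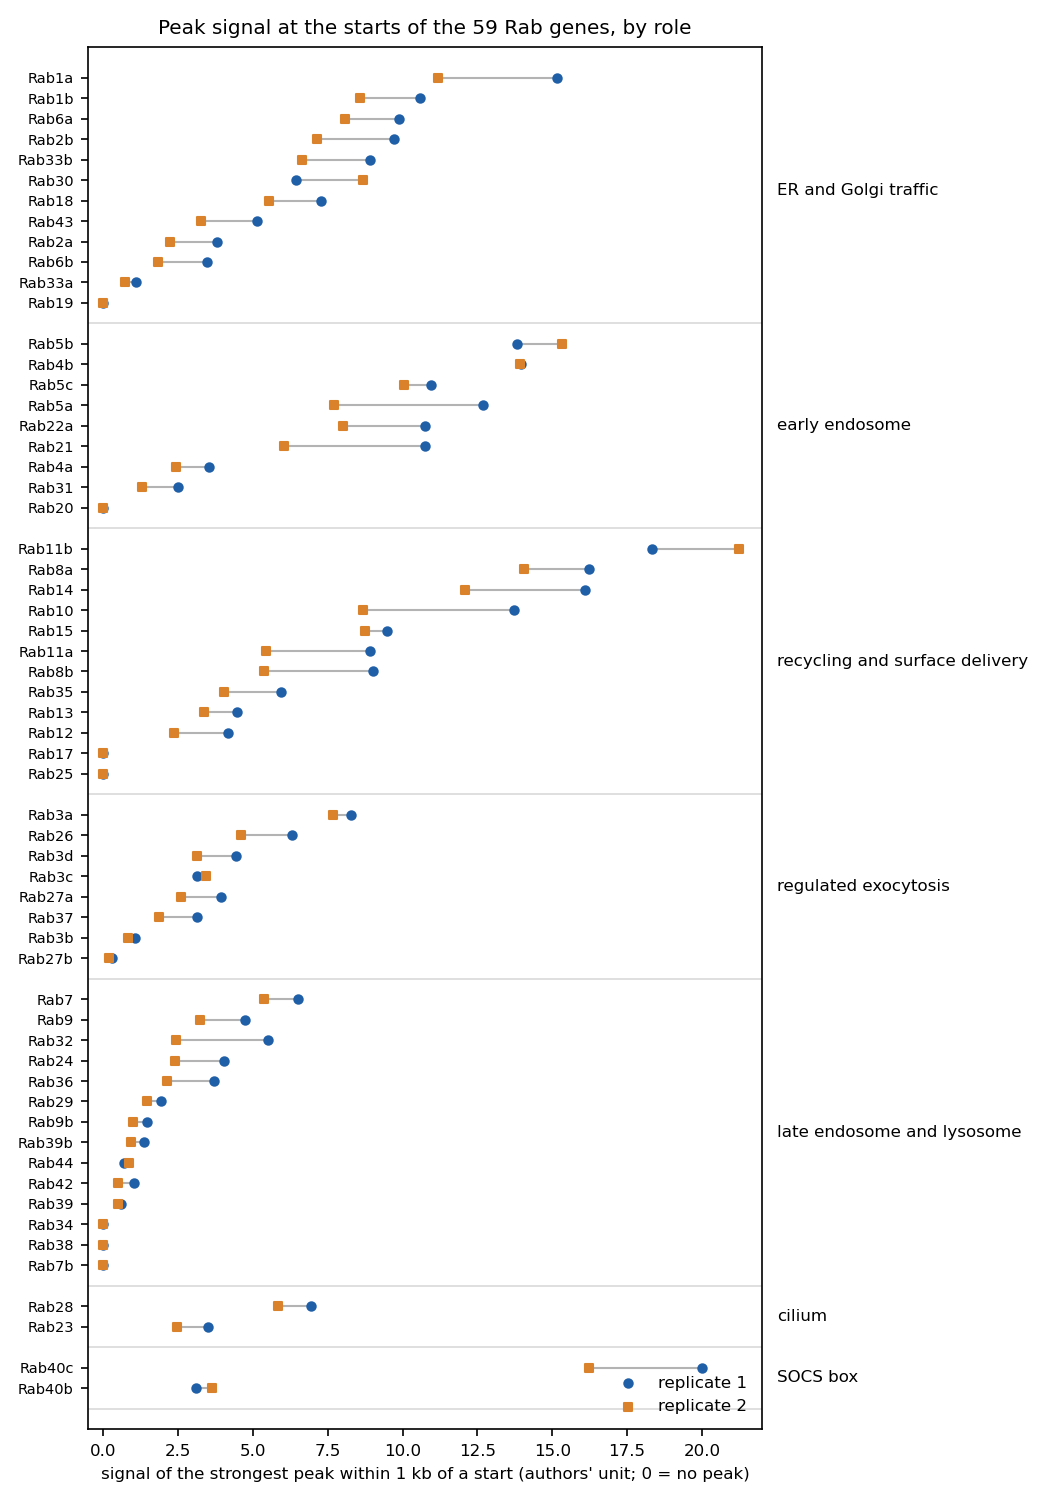
Signal of the strongest peak within 1 kb of a start (authors' unit, x axis) for each of the 59 Rab genes (rows), grouped by role, with replicate 1 as circles and replicate 2 as squares. The 7 genes at 0 have no peak in either library, and the highest values are those of Rab11b and Rab40c.

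The roles differed in level. The early endosome genes had the highest median of the larger groups, 10.8 in replicate 1 and 7.71 in replicate 2, with 8 of 9 open in both. This group holds the Rab5 genes, which drive fusion of early endosomes, with Rab5c at 11.0 and 10.1 and Rab5a at 12.7 and 7.71. Rab4b, of the rapid recycling route, had 13.9 in each library, and Rab22a 10.7 and 8.00. Rab21, known for integrin traffic, had 10.8 and 6.04. Rab31 was low at 2.50 and 1.31, and Rab20 was closed.

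The recycling and surface delivery genes had medians of 8.96 and 5.39, with 10 of 12 open in both libraries. Besides Rab11b, Rab8a and Rab14, Rab10, which like Rab8a acts in surface delivery and is phosphorylated by LRRK2, had 13.7 and 8.66. Rab15 had 9.47 and 8.74, and Rab11a, the paralogue of Rab11b found in most tissues, 8.92 and 5.43. Rab35, Rab13 and Rab12 lay between 2.35 and 5.92 over both libraries. The closed genes here were Rab17 and Rab25, both known mainly from epithelia.

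The ER and Golgi genes had medians of 6.85 and 6.08, and 11 of 12 were open in both libraries. Rab1a, needed for transport from ER to Golgi, had 15.1 and 11.2 and its paralogue Rab1b 10.6 and 8.57. Rab6a, a Golgi Rab, had 9.87 and 8.07, Rab2b 9.71 and 7.13, and Rab33b, known from autophagy, 8.92 and 6.63. Rab30 was 1 of 6 open Rab genes with the higher value in replicate 2, 6.42 and 8.67. Rab19 was the closed gene.

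Late endosome and lysosome genes were the lowest large group, with medians of 1.42 and 0.957 in replicates 1 and 2, below the other large roles in each library and close to the coding medians. Of its 14 genes 11 were open in both libraries. Rab7, which controls fusion with lysosomes, led with 6.52 and 5.35, and Rab9, which acts in return from late endosomes to the Golgi, had 4.74 and 3.23. Rab32, known from melanosomes, had 5.50 and 2.43. Rab24, Rab36 and Rab29 lay between 1.47 and 4.03, and Rab39, Rab39b, Rab9b, Rab42 and Rab44 between 0.493 and 1.47. Rab29 is tied to LRRK2, and Rab39b is known from X-linked intellectual disability. The closed genes were Rab7b, Rab34 and Rab38. The 2 cilium genes were both open, Rab28 at 6.92 and 5.85 and Rab23, which restrains Hedgehog signalling, at 3.50 and 2.47.

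The regulated exocytosis genes were open in 8 of 8 cases, with modest medians of 3.52 and 2.85. Within the Rab3 group, the synaptic vesicle Rabs and their relatives in other secretory cells, Rab3a stood apart. Rab3a had a signal of 8.28 in replicate 1 and 7.69 in replicate 2 (7.98 ± 0.419). Rab3d, studied mostly in exocrine granules, had 4.44 and 3.12 (3.78 ± 0.936). Rab3c had 3.12 and 3.44 (3.28 ± 0.226). The values of Rab3d and Rab3c overlapped between libraries, while the lower Rab3a value exceeded the higher value of each. Rab3b had 1.05 and 0.828 (0.939 ± 0.156), below both values of the other 3. The difference between Rab3a and the next gene of the group was 4.21 on the mean signal, 3.84 in replicate 1 alone and 4.25 in replicate 2 alone. All 4 were open by the rule of 1 kb, Rab3b through an internal peak.

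The Rab3b value needs its place. Its strongest peak lay about 59 kb inside the gene, centred at -854 bp from an internal transcript start in replicate 1 and at -935 bp in replicate 2, where negative is upstream. At its reference start, the start of the best-ranked annotated transcript, Rab3b had a peak of 0.664 in replicate 1 and none in replicate 2. With windows of 0.5 kb these are its values too, a mean of 0.332 in place of 0.939. Rab3b is then open in replicate 1 only, while the other 3 keep their values. With starts of protein-coding transcripts only, its mean is 0.332 as well, so the internal start is not that of a protein-coding transcript. The promoter printed above, which belongs to the reference start, is the 1 of the 4 with no footprint base in both libraries. Rab3a had 8 and 5 peaks in its windows, the strongest centred at -48 and -58 bp from the reference start, and 25 and 13 footprints. Some of these peaks overlap each other in the deposited lists, and joined they make 5 and 4. Rab3c had 10 and 9 footprints, Rab3d 8 and 7, and Rab3b 9 and 3.

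**Figure D2:**
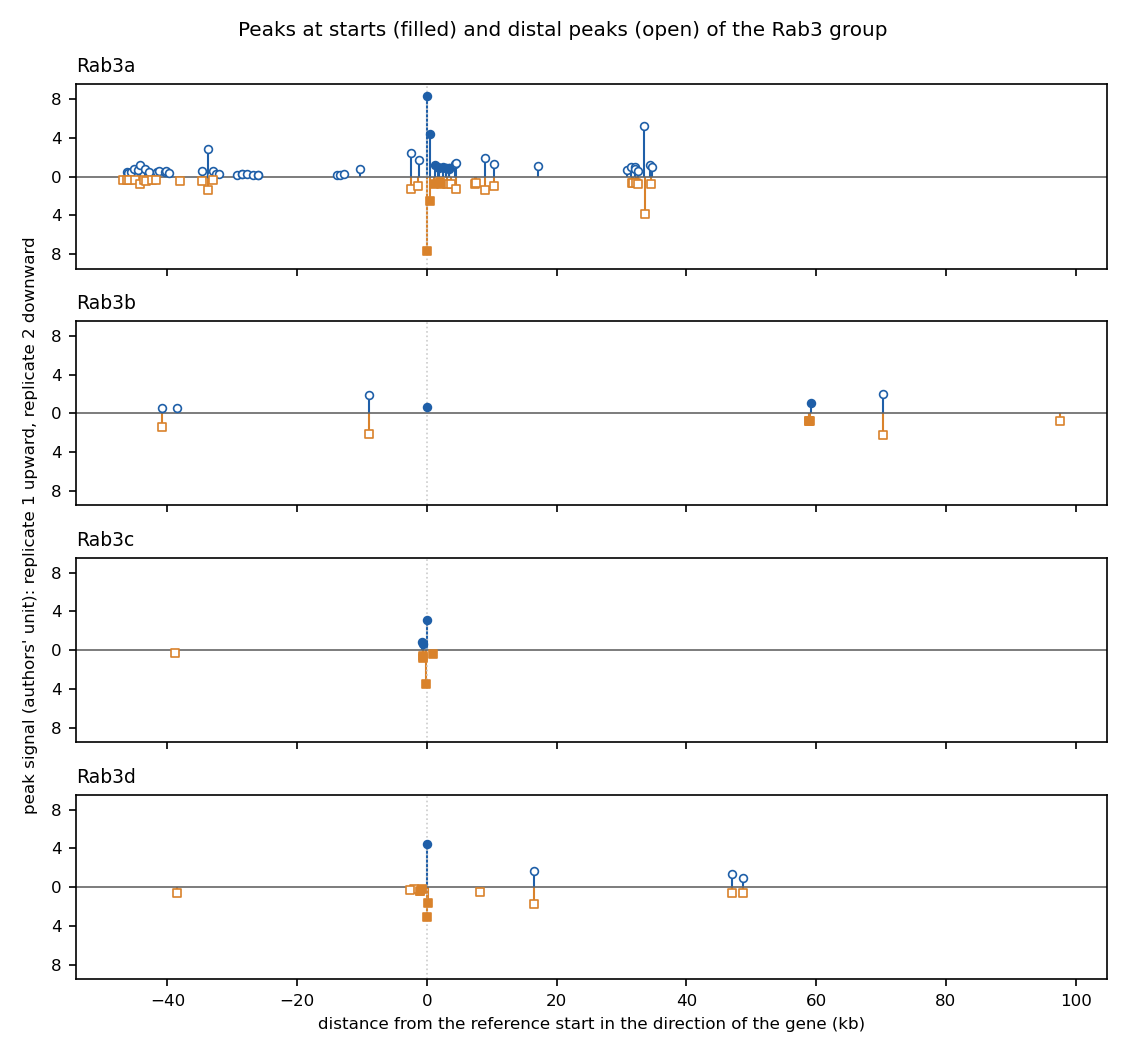
Peaks at starts (filled) and distal peaks (open) of the 4 Rab3 genes by distance from the reference start in the gene's direction (x axis, kb) and authors' signal (y axis; replicate 1 upward as circles, replicate 2 downward as squares). Rab3a has the tallest start peaks, 8.28 and 7.69, and 48 and 28 distal peaks, and the Rab3b start peaks of replicate 2 lie near 59 kb, inside the gene.

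The Rab27 pair shares effectors with Rab3. Rab27a, which carries melanosomes and secretory granules, had 3.93 and 2.59, and its strongest peak was centred at -583 bp from the start in both libraries. Rab27b, of platelets and secretory cells, had 0.278 in replicate 1 and 0.183 in replicate 2, the lowest open values of the family. Its peaks lay at different starts in the 2 libraries and did not overlap, the only Rab gene for which this held. No footprint lay in its windows in either library. Rab26, of synaptic vesicle clusters, had 6.30 and 4.61, and Rab37, described in mast cell granules, 3.12 and 1.86.

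Close paralogues often differed in signal. There were 18 such groups by name and textbook relation, holding 41 of the 59 genes. In 4 groups a gene without a peak stood beside an open one: Rab25 beside Rab11a and Rab11b, Rab7b beside Rab7, Rab38 beside Rab32 and Rab29, and Rab34 beside Rab36. Rab36 had a signal of 3.70 and 2.12. Among pairs open on both sides the highest was compared with the lowest, so the direction is fixed by the choice. The ratio was 14.1 in each library for Rab27a over Rab27b, 8.06 and 9.20 for Rab33b over Rab33a, and 7.89 and 9.28 for Rab3a over Rab3b. It was 6.47 and 4.46 for Rab40c over Rab40b, 4.30 and 6.12 for Rab22a over Rab31, and 3.95 and 5.72 for Rab4b over Rab4a. The ratios to Rab27b and Rab3b do not compare main promoters throughout. The Rab27b peaks of the 2 libraries lay at different starts and did not overlap, and the strongest Rab3b peaks lay inside the gene. At the reference start Rab27b had no peak in replicate 1 and Rab3b none in replicate 2. At the other end, Rab1a exceeded Rab1b by 1.43 and 1.31 times and Rab5b exceeded Rab5a by 1.09 and 1.99 times. The family thus held a pair of nearly level signal, Rab1a and Rab1b, beside pairs with a wide gap.

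**Figure D3:**
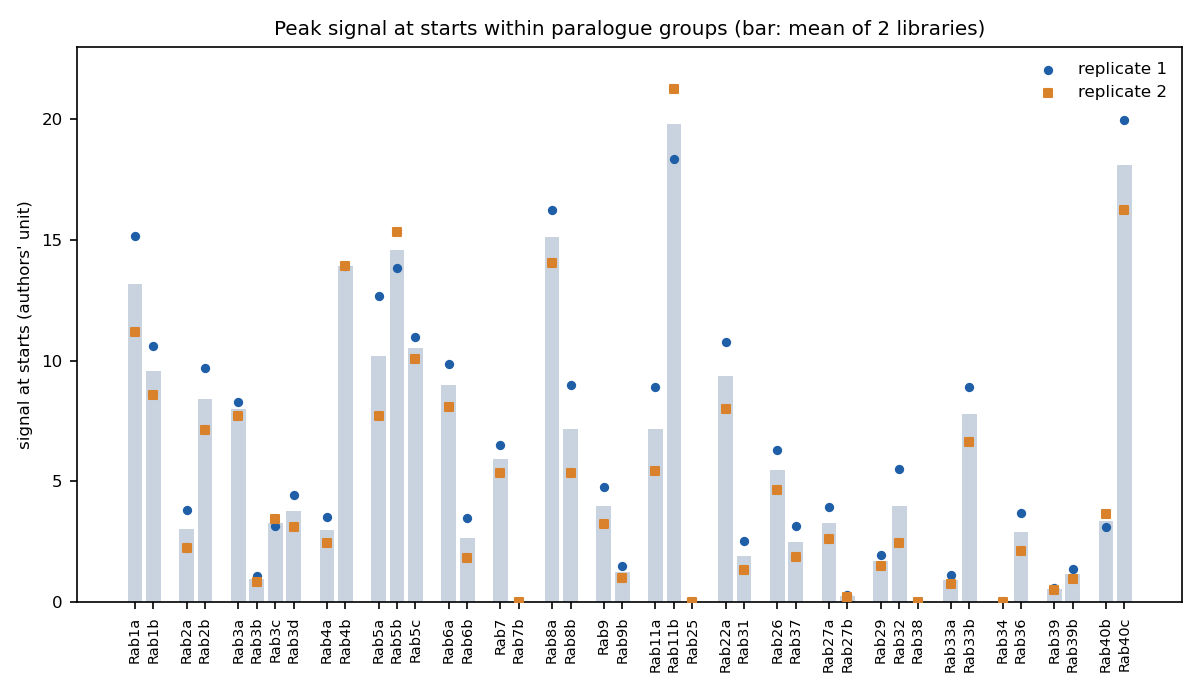
Signal at starts (y axis, authors' unit) of the 41 Rab genes in 18 paralogue groups, with the mean of the 2 libraries as bars and each library as a point. Rab25, Rab7b, Rab38 and Rab34 are at 0, and Rab3a stands at 8.28 and 7.69 against 1.05 and 0.828 for Rab3b. The Rab3b values are of a peak inside the gene, and those of Rab27b are of different starts in the 2 libraries.

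A gene can be open at a start other than its main one. At the reference start alone 48 of 59 Rab genes had a peak in both libraries, where the coding background was 52.2%. For 46 of the 52 open genes the strongest peak was the one at the reference start, and for 6 it was not in at least 1 library. The same share over open coding genes was not counted. Rab15 had 1.96 and no peak there, against 9.47 and 8.74 at a start inside the gene. Rab13, of tight junctions, had 1.30 and 0.923 there, and its strongest peak lay within 1 kb of the start of Rps27, a ribosomal protein gene. The remaining 4 were Rab27b, Rab37, Rab3b and Rab44. Rab44 had no peak at its reference start in either library.

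Sharing of a promoter peak with another coding gene was found for 4 of the 52 open Rab genes (7.69%), against 2621 of 12257 open coding genes (21.4%). These were Rab13 with Rps27, Rab6a with Mrpl48, Rab2b with Tox4 and Rab24 with Prelid1. The signal of those 4 cannot be assigned to the Rab gene by position. Only coding neighbours were counted here. The strongest peaks of Rab11b, Rab40c and Rab8a also lay within 1 kb of a start of a gene that is not protein-coding. These were Gm17251, Gm16278 and Gm16091, and some other open Rab genes had such a neighbour too. Position alone does not assign those signals either.

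CpG content at the reference start sorted open from closed genes only in part. A start was called CpG-rich where the observed over expected CpG exceeded 0.6 and GC content exceeded 50% in 1 kb around it, which held for 36 of 59 Rab genes (61.0%) and 46.1% of coding genes. Of the CpG-rich Rab genes 34 of 36 (94.4%) were open in both libraries, against 88.3% of CpG-rich coding genes. Rab20 and Rab34 were the closed ones. Of the other 23 Rab genes 18 (78.3%) were open, against 28.2% of coding genes. Under a CpG ratio of 0.5 the figures were 7 of 11 Rab genes and 19.5% of 9838 coding genes. Counted at any start, the gap between Rab genes and the coding background was thus wider among genes whose reference start is not CpG-rich. CpG was measured at the reference start, while open counts a peak at any start, so the promoters can differ. Of the genes that are not CpG-rich, Rab3b, Rab27b and Rab44 lacked a peak at the reference start in at least 1 library. The CpG-rich Rab15 did as well. Rab3b, Rab27b and Rab44 are all among the 7 open genes with a CpG ratio under 0.5. Rab13 is among those 7 too, with its strongest peak near the start of Rps27. Only 2 of the 8 exocytosis genes were CpG-rich, Rab3a and Rab3d, and the other 6 were open at some start all the same. At the reference start Rab3b had 0.664 in replicate 1 and no peak in replicate 2. Rab27b had no peak there in replicate 1 and 0.183 in replicate 2.

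**Figure D4:**
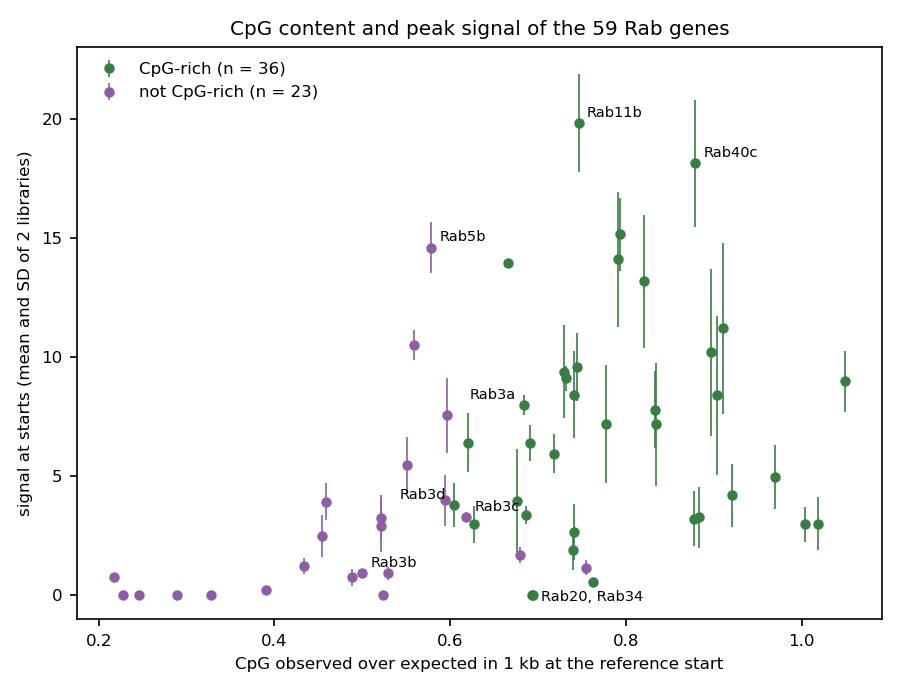
Observed over expected CpG in 1 kb at the reference start (x axis) against the signal at starts (y axis, mean of 2 libraries, bars SD) for the 59 Rab genes, with CpG-rich starts in green and others in purple. Rab20 and Rab34 are CpG-rich and closed, and Rab5b, at 13.8 and 15.3, is the highest of those not CpG-rich.

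The X chromosome carries Rab9, Rab9b, Rab33a and Rab39b, all 4 open in both libraries, against 42.5% of coding genes on the X. Their median signal was 1.42 and 0.958 in replicates 1 and 2, against 6.36 and 4.98 for the autosomal Rab genes with a peak. Over open coding genes the medians were 2.46 and 1.87 on the X and 4.94 and 3.46 on autosomes. The animals were male, with 1 X chromosome. Of the X-linked Rab genes 0 of 4 were CpG-rich, against 36 of 55 on autosomes. Rab9, Rab9b and Rab39b have the late endosome and lysosome role, the lowest of the large groups. The part of copy number, CpG content or role in these values was not tested.

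Distal peaks, centred within 50 kb of a start of the gene and over 1 kb from every annotated start, were about as common around Rab genes as around coding genes at large. The area searched thus grew with the distance between the starts of a gene. At least 1 was found for 41 Rab genes (69.5%) in replicate 1, against 67.5% of coding genes, and for 47 (79.7%) in replicate 2, against 72.6%. The mean per gene was 3.64 and 3.42, against 2.99 and 3.22 over coding genes, and the median 2 and 2, against 1 and 2. Rab3a and Rab37 held 33.5% and 22.8% of the distal peaks of the family. Without these genes the means were 2.51 and 2.74, below the coding means in each library, and the medians were 1 and 2. None lay near 11 genes in either library, and the share of coding genes with none in both was not counted. Of the distal peaks 55.8% in replicate 1 and 58.9% in replicate 2 overlapped a peak of the other library, against 72.5% and 58.2% of all distal peaks. A peak that touches the window at a start while its centre lies outside counts in both classes, which applied to 9 of 417 distal peaks.

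Rab3a had the most distal peaks, 48 in replicate 1 and 28 in replicate 2 (mean 38, SD 14.1, n = 2 libraries), ranking 13 and 99 among coding genes. They lay mostly over neighbouring genes: 13 and 10 over Iqcn, 8 and 6 over Mast3, 11 and 0 over Pde4c, 6 and 3 over Gm3336, and 3 and 2 over Rab3a itself. Of the 48 and 28 peaks, 24 and 22 overlapped a peak of the other library, so the excess of replicate 1 lay in peaks that replicate 2 lacked. Joining peaks that overlap in their own list left 40 and 26. The strongest, over Mast3 about 31.7 kb downstream of a start (chr8:70787961-70788420), had 5.17 and 3.87. Position alone does not assign these peaks to Rab3a. Its paralogues had few: 4 and 5 for Rab3b, 0 and 1 for Rab3c, and 3 and 8 for Rab3d.

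Rab37 followed with 24 and 18 distal peaks, of which 8 and 6 lay over no coding gene, 6 and 3 over Rab37 itself, 6 and 0 over Cd300e, 2 and 2 over Cd300ld3 and 2 and 3 over Tmem104. In replicate 2, another 2 lay over Nat9 and 2 over Slc9a3r1. The strongest, at 7.08 and 6.23, lay over no coding gene about 41.7 kb upstream (chr11:115049621-115049820). That peak exceeded the signal at the starts of Rab37, 3.12 and 1.86. Next were Rab1b with 8 and 15, Rab40c with 16 and 5 and Rab4b with 6 and 13, whose means of 11.5, 10.5 and 9.5 differed by less than the SD between libraries of each. The highest distal signal near any Rab gene in both libraries was 9.31 and 7.03, over Cdkn1a, a cell cycle inhibitor gene 18.6 kb upstream of a Rab44 start (chr17:29095341-29095680), where Rab44 itself had 0.699 and 0.866.

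**Figure D5:**
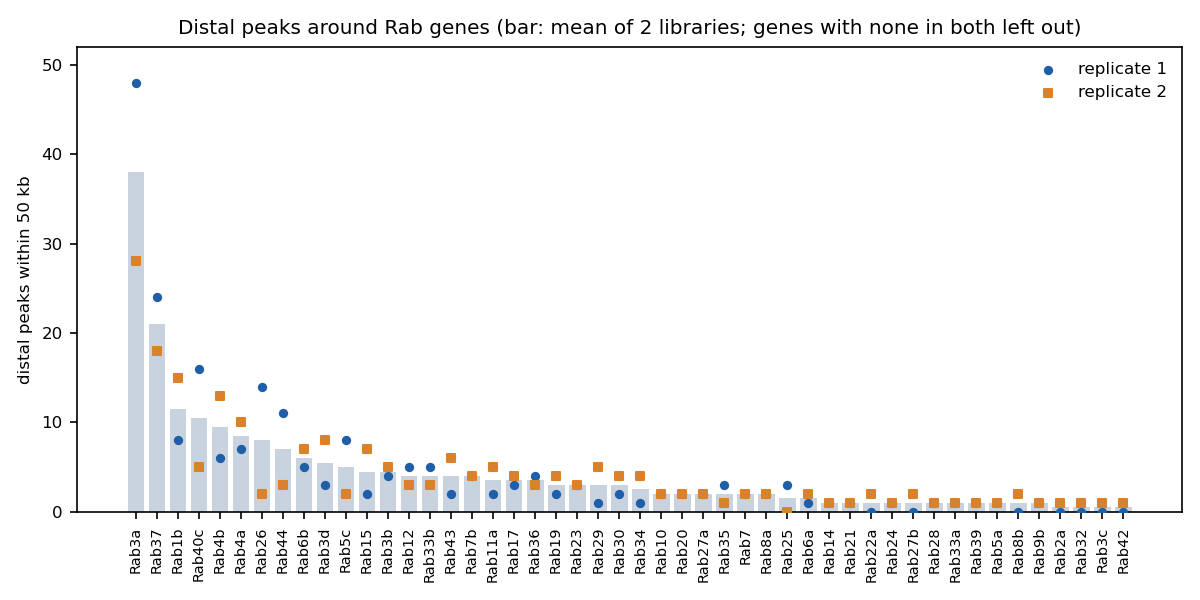
Number of distal peaks within 50 kb of a start (y axis) for Rab genes with at least 1 in either library, with the mean of the 2 libraries as bars and each library as a point. Rab3a with 48 and 28 and Rab37 with 24 and 18 stand above the rest. The area searched is wider for genes with starts far apart, such as Rab37.

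The closed genes were looked at for distal peaks as well. Rab7b had 4 and 4 distal peaks, Rab17 3 and 4, Rab19 2 and 4, Rab20 2 and 2, Rab25 3 and 0, Rab34 1 and 4 and Rab38 0 and 0. So 5 of the 7 (71.4%) had distal peaks in both libraries, against 64.8% of all coding genes and 45.2% of the 8844 coding genes closed in both. With 7 genes this is a description only, and Rab38, known with Rab32 from melanosomes, was the 1 with none.

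Footprints in the windows at starts numbered 627 and 575 over the family. At least 1 lay at 51 Rab genes in replicate 1, against 61.7% of coding genes, and at 52 in replicate 2, against 59.6%. The median was 10 in each library, against 5 and 5 over coding genes. Among open genes it was 11 and 11.5, against 11 and 10, so open Rab genes and open coding genes had about as many. Rab40c had the most in both libraries, 28 and 29. The next places differed between the libraries, with Rab3a at 25 and 13, Rab30 at 23 and 19, Rab37 at 22 and 17 and Rab6a at 19 and 20. Of the footprints 61.4% and 68.0% overlapped one of the other library, against 57.4% and 62.8% over coding genes. Across the 52 open genes mean signal and mean number of footprints had a rank correlation of 0.593, and 0.384 across open coding genes. Genes with a higher signal thus tended to have more footprints.

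In all 11 short motifs were searched on both strands of the RefSeq promoters, 250 bases before to 50 after the start, as a description of sequence only. GGGCGG, the box bound by SP and KLF factors, was in 35 of 48 Rab promoters (72.9%) and 48.5% of 16522 coding promoters. Within CpG-rich starts the shares were 81.8% and 74.0%. CCAAT, bound by NFY, was in 24 of 48 (50%) against 38.7%. Of the 11 motifs 6 were more frequent in Rab promoters than in coding promoters and 5 less. The less frequent ones were the ETS motif CCGGAAG (10.4% against 12.4%), TATAAA (8.33% against 12.9%), the AP-1 motif TGANTCA (4.17% against 6.97%), the NEUROD E-box CAGATG (10.4% against 14.4%) and the NRF1 motif GCGCATGCG (2.08% against 2.52%). The E-box CACGTG (10.4% against 8.09%), the YY1 motif AAGATGGC (6.25% against 3.27%) and the CRE TGACGTCA (4.17% against 2.41%) were more frequent, each in 5 or fewer Rab promoters. Within CpG-rich starts the direction turned for 2 motifs. The NEUROD E-box was there more frequent in Rab promoters (15.2% against 9.08%) and the CRE less (3.03% against 3.63%). The other motifs kept their direction. In the Rab3a promoter above, 1 GGGCGG and 1 of 2 CCAAT matches touched capitals, in Rab3d 2 GGGCGG matches, in Rab11b 1 CCAAT match and in Rab40c 3 GGGCGG matches and 1 CCAAT match. Rab3b held 3 GGGCGG matches and has no base in capitals.

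TCACGTGAC, the core of the CLEAR element known from lysosomal genes, contains the E-box CACGTG and was in 3 of 48 Rab promoters (6.25%), Rab21, Rab24 and Rab5a, against 175 coding promoters (1.06%). A footprint lay over each of the 3 in both libraries, as over 118 of the 175 (67.4%). The sites are printed with 10 bases either side of a match, on the gene's strand. Each holds the motif on both strands, the matches being 1 base apart. The capitals mark the match on the opposite strand, and the match on the printed strand starts and ends 1 base later. The sites lie at Rab21 (chr10:115315605-115315633, minus), Rab24 (chr13:55321962-55321990, minus) and Rab5a (chr17:53479127-53479155, plus). Their signals at starts were 10.8 and 6.04 for Rab21, 4.03 and 2.39 for Rab24 and 12.7 and 7.71 for Rab5a. Of the late endosome and lysosome genes found in the table, Rab24 alone held the match in this window.
Rab21: gcccaccgcgGTCACGTGAcgaggggtgt
Rab24: cggcgcccgcGTCACGTGAccgggcgtcc
Rab5a: acccggggatGTCACGTGActtcggcccc

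The proteins that load, switch and read Rabs were taken from lists of 100 genes. Of these 89 (89.0%) were open in both libraries, against 55.9% of coding genes, 10 in neither, and Rab11fip1 in 1 library. All 7 genes of prenylation and membrane recycling were open, led by Chml, an escort for prenylation, at 11.3 and 7.05 and Rabac1 at 5.57 and 5.66. Exchange factors, which load GTP, were open in 25 of 29 cases, with Mon1b, of the Rab7 exchange factor, at 13.8 and 10.0 and Madd, the exchange factor for Rab3, at 11.8 and 8.70. GTPase-activating proteins were open in 33 of 34 cases, with Tbc1d17 at 15.4 and 14.9 and Evi5l at 13.4 and 14.7, and Tbc1d16 closed.

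Effectors of Rab3 and Rab27 were the least open list, 7 of 12 (58.3%), near the 55.9% of coding genes, with medians of 1.11 and 0.525. Rims1, the active zone scaffold that binds Rab3a, had 3.74 and 3.02, and Myrip 3.03 and 1.85. Rph3al and Sytl1 were closed, as were Sytl3, Sytl4 and Sytl5, which with Sytl1 are synaptotagmin-like effectors of Rab27 in secretory cells. Endosomal effectors were open in 14 of 15 cases, with Fyco1 at 6.77 and 8.02 and Rab11fip5 at 8.04 and 6.37. The kinases and the phosphatase of Rabs were open in 3 of 3 cases. Ppm1h, the phosphatase, had 2.998 and 2.46 with 38 and 28 distal peaks, and Lrrk2, the kinase, 2.35 and 1.22. Of the 10 closed genes of all lists, 5 were effectors of Rab3 and Rab27, 4 were exchange factors and 1 a GTPase-activating protein.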

How the data were processed

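DNase-seq peaks, footprints and FDR values of 2 libraries from mouse cerebellum were used as deposited. Per the labels, coordinates are on mm10 (GRCm38). The aligner, the peak caller and their versions are not stated in the labels or headers. The authors deposited per library a stricter and a longer peak list with a signal value, whose scale is not stated, FDR values (q-value like, 0 to 1) of the cut rate, and footprints that all carry the FDR 0.01, so their strength is unknown. Signal was used within a library and set side by side between libraries. A peak within a list can overlap another, and joining such peaks made the stricter lists 2.91% and 2.64% shorter.

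Computed here, with Python 3.11.15, pandas 2.3.3 and pysam 0.24.0: peaks and footprints overlapping 1 kb either side of any GENCODE M21 start, distal peaks within 50 kb, and sharing by 1 bp of overlap. The counting was tested on simulated data. Full values were given to the Rab3 and Rab27 groups, the 5 highest signals, all closed genes, the genes with most distal peaks or footprints, and paralogues that differed in having a peak. In the pathway lists they were given to the 2 highest genes and up to 2 closed ones. The members and lists were chosen with earlier results of these data known. Alternatives were windows of 0.5 and 2 kb, other starts, peak lists, distances and overlaps, and each library alone.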

Additional observations from a re-analysis of the deposited data

How the results depend on the processing

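The number of Rab genes open at a start in both libraries was 52, and 45 to 53 over all alternatives tried. It was lowest when only stricter peaks above the median signal of their library were kept, and the coding share at that setting was not counted. The number was 52 with either library left out. The median signal, 3.92, ran from 3.27 without replicate 1 to 4.48 without replicate 2 and was 3.37 at reference starts alone. The lead of Rab3a over the next Rab3 gene, 4.21, was 3.84 to 4.25 with 1 library left out. The mean number of distal peaks, 3.53 over both libraries, depends on the setting by construction. It was 6.35 in the longer list, 1.53 for peaks above the median signal, 1.75 within 25 kb, 6.01 within 100 kb and 2.03 when only peaks shared by both libraries counted, and 3.42 to 3.64 with 1 library left out. The median number of footprints, 10, fell to 6 for footprints shared by both libraries and to 6 inside peaks. Added after seeing the data were reference starts only, overlapping start peaks (51 genes, without Rab27b), joined peaks (a mean of 3.38 distal peaks) and the family without Rab3a (2.94). The lead of Rab3a kept its sign in all alternatives tried. The other values are counts or levels, which cannot change sign. Without Rab3a the mean of distal peaks, 2.94, fell below the coding mean of 3.11, while with Rab3a it lay above. No paired analysis was possible because there is 1 group.

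Read depth is not known here, so a gene without a peak is one not detectable as open at these cut-offs, and weak peaks such as those of Rab27b are the least certain.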
